A study of Mus musculus with 6 samples.

Results

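Of 517 microRNA assays read in mouse aortas, 113 gave no signal before cycle 35 in any of 6 aortas, and 95 of these (18.4% of all assays) are described here. The value of an assay is its threshold cycle (Ct), the PCR cycle at which fluorescence passes a fixed level. A lower Ct means more RNA, and 40 was entered for a well with no product. An assay was a member where its Ct was at least 35 in all 6 aortas. Star-named strands (17 assays, minor strands of a hairpin) and 1 assay of a named family, miR-208b, met that limit and were left out. So were the plant control, the small nuclear and nucleolar control RNAs, and by name the let-7, miR-200, miR-206 and miR-208 assays. Since Ct chose the members, their Ct values and counts are a description and were not tested.

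The aortas came from male Apoe-/- mice, which lack apolipoprotein E and develop atherosclerosis when fed fat. They were 6 to 8 weeks old when a high-fat diet (21% crude fat) was started, which they ate for 12 weeks. The 3 Dicer_KO mice had the genotype LysM-Cre/Dicerflox/flox/Apoe-/-, and the 3 Dicer_WT mice were littermates with LysM-Cre/Dicerwt/wt/Apoe-/-, so both groups carried the Cre and lacked Apoe. Cre under the lysozyme M promoter acts in macrophages, monocytes and neutrophils, and Dicer, the enzyme that cuts microRNA hairpins, was left intact in cells without Cre. The labels name macrophage as cell type, but RNA was taken from the whole perfused vessel. In such bulk RNA, fewer cells of a type and less RNA per cell cannot be told apart.

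A microRNA hairpin is cut into a duplex of a 5p and a 3p strand, and usually 1 of the strands is kept in the silencing complex while the other is degraded. Bases 2 to 8 of the kept strand, the seed, direct it to its targets, so microRNAs with the same seed are grouped as a family. Genes of microRNAs often lie in clusters that are transcribed together, and many clusters are active in few tissues, such as the germ line, pluripotent stem cells or neurons.

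RefSeq sequences of the mature forms (assembly GRCm38.p6) were found for 73 of the 95 members. The sequences shown are those of 6 absent microRNAs with a same-seed relative detected in all 6 aortas, with that relative after them, and of 2 absent stem cell microRNAs that share a seed with each other. Capitals mark the seed, and sequences run 5′ to 3′.
miR-100 (absent): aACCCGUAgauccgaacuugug
miR-99a (absent): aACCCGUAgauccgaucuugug
miR-99b (detected): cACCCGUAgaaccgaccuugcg
miR-98 (absent): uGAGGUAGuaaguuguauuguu
let-7a (detected): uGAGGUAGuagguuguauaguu
miR-146b (absent): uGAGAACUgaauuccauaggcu
miR-146a (detected): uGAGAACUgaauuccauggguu
miR-18b (absent): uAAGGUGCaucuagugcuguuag
miR-18a (detected): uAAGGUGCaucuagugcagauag
miR-211 (absent): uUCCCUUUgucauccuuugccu
miR-204 (detected): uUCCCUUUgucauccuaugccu
miR-294 (absent): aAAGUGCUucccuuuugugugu
miR-302d (absent): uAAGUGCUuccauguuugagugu

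The mature forms of miR-100 and miR-99a lie at chr9:41531437-41531458 and chr16:77598940-77598961, both on the plus strand and outside protein-coding genes. The miR-98 form lies at chrX:151913229-151913250 within the bounds of Huwe1, and that of miR-146b at chr19:46342790-46342811 within a non-coding gene, both on the plus strand. The forms of miR-18b, at chrX:52742381-52742403 on the minus strand, and of miR-211, at chr7:64205831-64205852 on the plus strand within Trpm1, complete the pairs. The stem cell forms lie at chr7:3220691-3220712 (miR-294, within Nlrp12) and chr3:127545665-127545687 (miR-302d, within Larp7), both on the plus strand. The annotation used gives gene bounds only, so exon and intron were not separated. Strand was not compared, so a microRNA said to lie within a gene may be on the opposite strand.

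Absence was nearly complete. Of the 570 wells of the 95 members, 567 had no product, and 92 members had none in any aorta. The other 3 gave 1 late reading each. These were miR-487b at Ct 35.9 in Dicer_KO replicate 2, miR-493 at 36.0 in Dicer_WT replicate 3 and miR-469 at 36.0 in Dicer_WT replicate 2. Few readings of any assay came that late, since among all 3102 wells 31 lay from Ct 35 to under 40, the latest at 37.1, and 28.1% of wells had no product. Just outside the limit lay miR-291a-3p, with 34.996 in Dicer_WT replicate 3 and no product elsewhere, and miR-292-3p, with 34.975 in Dicer_WT replicate 2 and no product elsewhere. Both are stem cell microRNAs whose 5p strands are members. Next were miR-551b (lowest Ct 34.7), miR-653 (34.0), miR-881 (34.0) and miR-719 (33.9), each under 35 in 1 aorta.

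**Figure D1:**
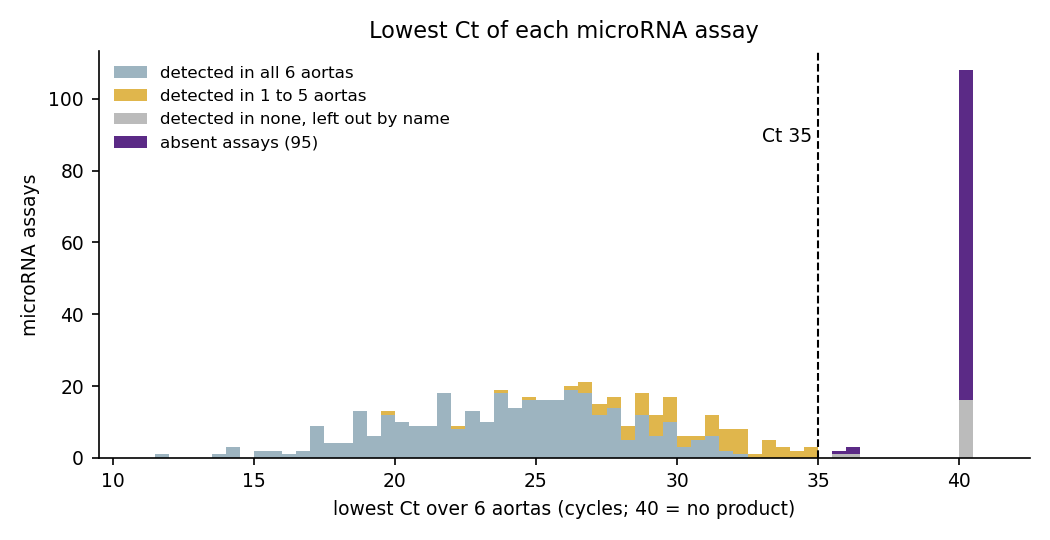
Number of microRNA assays by their lowest Ct over 6 aortas, in bins of 0.5 cycles, with assays detected in all 6, in 1 to 5 and in no aorta stacked. The 95 absent assays stand at 40 except for 3 near 36, and few assays lie beside the dashed limit at Ct 35.

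Between aortas, 349 to 378 assays were detected (374, 378 and 374 in Dicer_WT and 366, 357 and 349 in Dicer_KO), and late readings numbered 3 to 8 per aorta. The plant control gave no product in any aorta. In every aorta the 11 assays of a vascular and blood list were detected, among them smooth muscle miR-145 (Ct 11.5 to 12.7), endothelial miR-126-3p (15.9 to 16.5) and myeloid miR-223 (19.2 to 22.0). Dicer mRNA was not measured, so the genotype labels had no check on these cards. Assays were spread over 2 cards. The first held 67 members among 320 assays that the name rules allowed (20.9%), and the second 28 among 71 (39.4%).

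Grouped by the tissue in which a microRNA is best known, or in some lists by its locus or family, 53 members fell into lists and 42 into none. Members were the greater share of the assays in lists of germ line, gonad and pluripotent stem cell microRNAs. No assay was absent from all aortas in the lists for liver, pancreas, intestine and kidney epithelia, squamous and glandular epithelia, striated muscle, the Hox clusters or the vascular and blood list. The striated muscle list leaves out miR-206 and miR-208 assays by name, among them the absent miR-208b, encoded within the myosin gene Myh7. The tissue lists describe where a microRNA is abundant, not where it is exclusive.

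**Figure D2:**
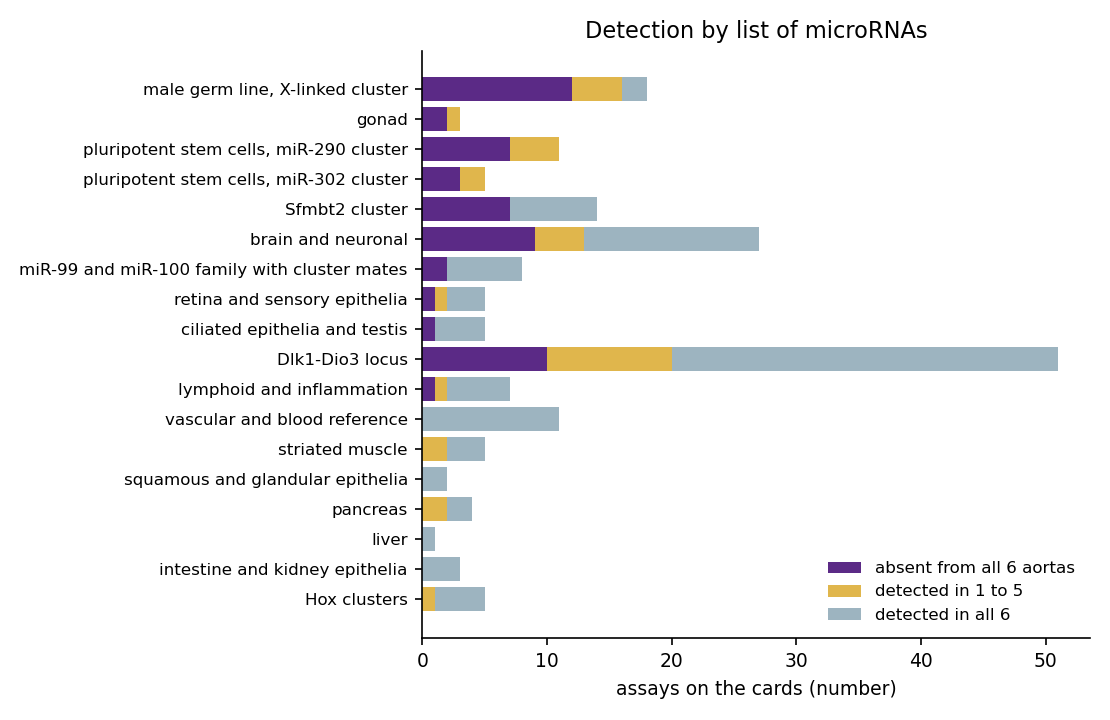
Number of assays on the cards in each of 18 lists of microRNAs, split into those absent from all 6 aortas, detected in 1 to 5 and detected in all 6. The X-linked male germ line list has 12 absent of 18, and the vascular and blood list has 0 of 11.

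The male germ line list holds assays of an X-linked cluster that is expressed in testis. Of its 18 assays, 12 were absent: miR-465a-3p, miR-465a-5p, miR-470, miR-742, miR-743a, miR-743b-3p, miR-743b-5p, miR-871, miR-878-5p, miR-883a-3p, miR-883a-5p and miR-883b-3p. Only 2 of the 18 were detected in every aorta. One was miR-878-3p, with Ct 29.1, 28.8 and 28.9 in Dicer_WT and 28.8, 28.2 and 28.3 in Dicer_KO aortas. The other was miR-547, with 25.4, 25.8 and 26.5 in Dicer_WT and 26.1, 26.6 and 27.0 in Dicer_KO aortas, which overlap between the groups. Within the cluster, miR-883a-3p and miR-883b-3p share their seed and differ at G12U, and miR-743a and miR-743b-3p share theirs and differ at 3 positions. Positions are counted from 1 at the 5′ end, with the base of the microRNA named first and then that of the other. Gonad microRNAs gave a like picture, with miR-105, in the bounds of the GABA receptor gene Gabra3, and miR-202-5p absent. The remaining assay of that list, miR-202-3p, read 33.1 in Dicer_WT replicate 1 and 33.2 in Dicer_KO replicate 1 and had no product in the other 4 aortas.

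The miR-290 and miR-302 clusters are transcribed in pluripotent stem cells and early embryos, and their 3p strands with the AAGUGCU seed promote the fast cell cycle of these cells. Of 11 miR-290 cluster assays, 7 were absent (miR-290-3p, miR-290-5p, miR-291a-5p, miR-291b-3p, miR-291b-5p, miR-292-5p and miR-294), and of 5 miR-302 cluster assays, 3 (miR-302a, miR-302c and miR-302d). None of the 16 was detected in every aorta, but 6 were in some. The most frequent was miR-295, with the seed of miR-294 and miR-302d, at 32.8 in Dicer_WT replicate 1 and 31.9 and 32.9 in Dicer_KO replicates 2 and 3. Dicer_KO replicate 1 gave a late 36.1, and the other 2 aortas no product. In the miR-302 cluster, miR-367 was under 35 in Dicer_WT replicate 2 (31.1) and Dicer_KO replicate 3 (34.3), and miR-302b in Dicer_KO replicate 3 (32.1). Such scattered detections came from both groups.

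Of 27 brain and neuronal assays, 9 were absent and 14 were detected in every aorta. The absent ones included miR-153, within Ptprn2, miR-346, within the glutamate receptor gene Grid1, and miR-490, within the muscarinic receptor gene Chrm2. Also absent were miR-448 and miR-764-3p, both within the serotonin receptor gene Htr2c, miR-876-3p and miR-876-5p within Lingo2, and miR-666-5p and miR-770-3p of the Dlk1-Dio3 locus. The list as a whole was not missing from the vessel. Nerve-enriched miR-9 lay at 23.6 to 24.6 and miR-218 at 21.2 to 22.7 over the 6 aortas. The miR-124 assay, the most abundant brain microRNA, read from 28.1 to 30.0 in 5 aortas and gave no product in Dicer_KO replicate 3.

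Smaller absences occurred in lists that were mostly detected. In the retina and sensory list 1 of 5 assays was absent, miR-211, and in the ciliated epithelia and testis list 1 of 5, miR-449b. Its family members miR-449a (30.6 to 32.4) and miR-449c (28.9 to 31.2) were detected throughout. In the lymphoid and inflammation list 1 of 7 was absent, miR-146b.

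In the imprinted Dlk1-Dio3 locus, where maternal transcripts carry many microRNAs, 10 of the listed assays were absent, 10 were detected in some aortas and 31 in all. The absent ones were miR-377, miR-380-3p, miR-487b, miR-493, miR-540-3p, miR-654-5p, miR-666-5p, miR-679, miR-758 and miR-770-3p. The absent miR-485 is not in the list but lies at the same locus, 693 bases from miR-134. Each has neighbours within 10 kb on its strand that were read in every aorta, such as miR-411 (22.5 to 23.7) beside miR-380-3p, miR-666-5p, miR-679 and miR-758.

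An intron of Sfmbt2 carries repeated, near-identical microRNA genes of the miR-297, miR-466, miR-467 and miR-669 families, and 7 of the 14 assays with these names were absent. These were miR-297b-5p, miR-297c, miR-466a-3p, miR-466b-3-3p, miR-466c-5p, miR-466d-5p and miR-466h. The list for this locus, as plotted, also has 7 of 14 absent, but it holds miR-468, whose reference gene lies on chromosome 6, in place of miR-466c-5p. The other 7 were detected in all 6 aortas, from miR-466d-3p (18.6 to 19.1) to miR-467d (29.6 to 33.005). How far each assay separates the near-identical copies was not tested.

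The 42 members in no list include a block with high numbers. Among 35 assays numbered miR-681 to miR-720, 17 were absent, 4 were detected in some aortas and 14 in all. Absence and strong signal stood side by side there, since miR-709 lay at 14.4 to 16.9 and miR-690 at 17.3 to 19.0. The 17 absent assays were miR-681, miR-683, miR-684, miR-686, miR-687, miR-688, miR-691, miR-693-3p, miR-693-5p, miR-695, miR-696, miR-707, miR-710, miR-711, miR-713, miR-717 and miR-718. The last 25 members were miR-18b, miR-98, miR-139-3p, miR-188-3p, miR-220, miR-296-3p, miR-298, miR-325, miR-351, miR-450a-3p, miR-450b-5p, miR-452, miR-464, miR-466c-5p, miR-469, miR-485, miR-505, miR-509-5p, miR-670, miR-675-5p, miR-759, miR-762, miR-763, miR-874 and miR-875-3p.

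By position, 23 of the 77 members with a reference gene lie on chromosome X (29.9%), against 33 of 233 other assays (14.2%). On chromosome 7, which holds the miR-290 cluster, the counts were 13 of 77 (16.9%) and 14 of 233 (6.01%), and on chromosome 12, with the Dlk1-Dio3 locus, 13 of 77 (16.9%) and 45 of 233 (19.3%). These shares are descriptions, since members of a cluster are not independent. Of 76 members with a single gene, 37 (48.7%) lie within the bounds of a protein-coding gene on either strand, beside 126 of 231 other assays (54.5%).

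The strand absent from the aortas often had a detected partner. For none of these hairpins can a failed assay and an absent strand be told apart. For 30 hairpins with a member, both strands were on the cards. In 11 of them the other strand was detected in all 6 aortas, in 9 in some, and in 10 neither strand was detected. Over all 139 hairpins with 2 assays, both strands were detected in all aortas in 79, 1 strand in all and the other in none in 17, both in none in 10, and 33 had other mixtures. The assays whose names give no strand were assigned to a strand by hand from older microRNA naming.

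By assay name, the clearest contrast was in the miR-466d hairpin, though whether its assays separate near-identical copies was not tested. Its 5p strand had no product in any aorta, and the 3p strand read 18.7, 19.1 and 19.0 in Dicer_WT and 19.1, 18.6 and 19.0 in Dicer_KO aortas. Likewise miR-139-3p was absent, and miR-139-5p, encoded within the phosphodiesterase gene Pde2a and known as a brake on cell growth, read 22.0, 22.0 and 21.5 in Dicer_WT and 22.3, 21.8 and 21.9 in Dicer_KO aortas. For both, the groups overlapped. The partner of miR-296-3p, miR-296-5p, an endothelial angiogenesis microRNA, read 26.0, 26.5 and 26.9 in Dicer_WT and 26.0, 26.6 and 26.6 in Dicer_KO aortas.

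In the miR-380 hairpin the detected 5p strand, a repressor of p53, read 27.2, 27.3 and 27.9 in Dicer_WT and 28.3, 28.8 and 29.0 in Dicer_KO aortas. The partner of miR-188-3p, miR-188-5p, read 27.6, 27.9 and 28.4 in Dicer_WT and 28.9, 28.6 and 28.8 in Dicer_KO aortas. In relative level, scaled to the reference RNAs, the groups of miR-188-5p overlapped. Those of miR-380-5p did not, with Dicer_KO lower, as for 32.6% of all assays tested. The other detected partners were miR-485* (24.983 to 26.0), miR-764-5p (26.6 to 27.1), miR-878-3p (28.2 to 29.1), miR-450a-5p (29.5 to 31.0), miR-875-5p (30.7 to 32.9) and miR-470* (31.3 to 34.3). In the miR-485 and miR-470 hairpins the star strand was thus detected, and the assay named without a star was silent.

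**Figure D3:**
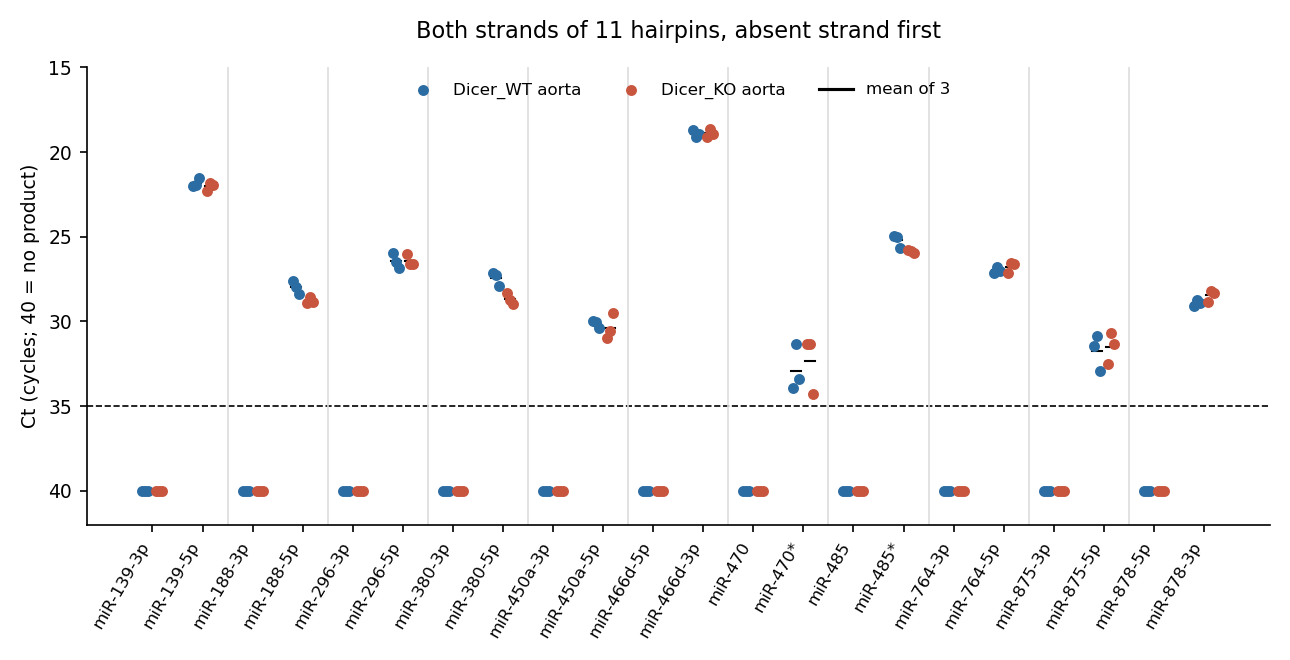
Ct of both strands of the 11 hairpins with 1 absent strand and 1 strand detected in all 6 aortas, a point per aorta and a bar at the mean of 3. The Ct axis is inverted, so more RNA is higher; absent strands stand at 40, and their partners lie from 18.6 (miR-466d-3p) to 34.3 (miR-470*).

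In some hairpins the partner was seen in a few aortas only. The 3p strand of miR-675, a microRNA of the imprinted H19 transcript, read 30.0 in Dicer_WT replicate 2 and had no product in the other 5, and its 5p strand was absent. The 3p strand of miR-509 read 28.8 in Dicer_WT replicate 3 and 29.0 in Dicer_KO replicate 3 and gave no product elsewhere. The star strand of miR-146b was read in 5 aortas, at 28.6, 28.1 and 29.4 in Dicer_WT and at 29.9 and 29.8 in Dicer_KO replicates 1 and 3, although the miR-146b assay had no product in any of the 6.

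Several members have a relative with the same seed that was plentiful. The miR-99 and miR-100 family, which represses mTOR, is an example. Neither miR-100 nor miR-99a gave product, whereas miR-99b read 17.9, 18.6 and 18.5 in Dicer_WT and 19.0, 19.4 and 19.6 in Dicer_KO aortas. Against miR-100, miR-99a differs at A16U only, and miR-99b differs at 4 positions, A1C, U11A, A16C and U21C. The genes of miR-100 and miR-99a also lie within 10 kb of let-7a and let-7c genes. let-7a read 19.1 to 20.9 and let-7c 17.4 to 19.0 over the 6 aortas, though both are also made from genes elsewhere. Each assay was read 1 time per aorta and no reading of a synthetic template was used here, so a failed miR-100 or miR-99a assay and absent RNA cannot be told apart.

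The same holds for miR-98, a let-7 family member with the substitutions A11G and U19A against let-7a, since all 8 same-seed let-7 assays were detected in every aorta. miR-146b, an NF-kappaB-induced brake on inflammatory signalling, differs from miR-146a at A18G and C21U. It was absent where miR-146a read 18.9, 18.9 and 19.5 in Dicer_WT and 20.3, 19.9 and 20.6 in Dicer_KO aortas. The star strand of miR-146b was read in 5 aortas, and a failed miR-146b assay and absent RNA cannot be told apart. In relative level the groups of miR-146a did not overlap, with Dicer_KO lower, as for 32.6% of all assays tested.

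Of the pairs left, miR-18b differs from miR-18a at U18A and U20A, and miR-18a read 27.1 to 29.0. Its cluster mate on chromosome X, miR-20b, read 23.0 to 24.2. miR-211 differs from miR-204 at U17A only, and miR-204, encoded within Trpm3, read 21.1 to 22.3. miR-351 shares its seed but few other bases with miR-125b-5p (16.7 to 17.4) and miR-125a-5p (19.9 to 21.0), and its cluster mates miR-322 (23.7 to 24.7) and miR-503 (26.8 to 28.0) were detected as well. For miR-18b, miR-211 and miR-351 too, a failed assay and absent RNA cannot be told apart.

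**Figure D4:**
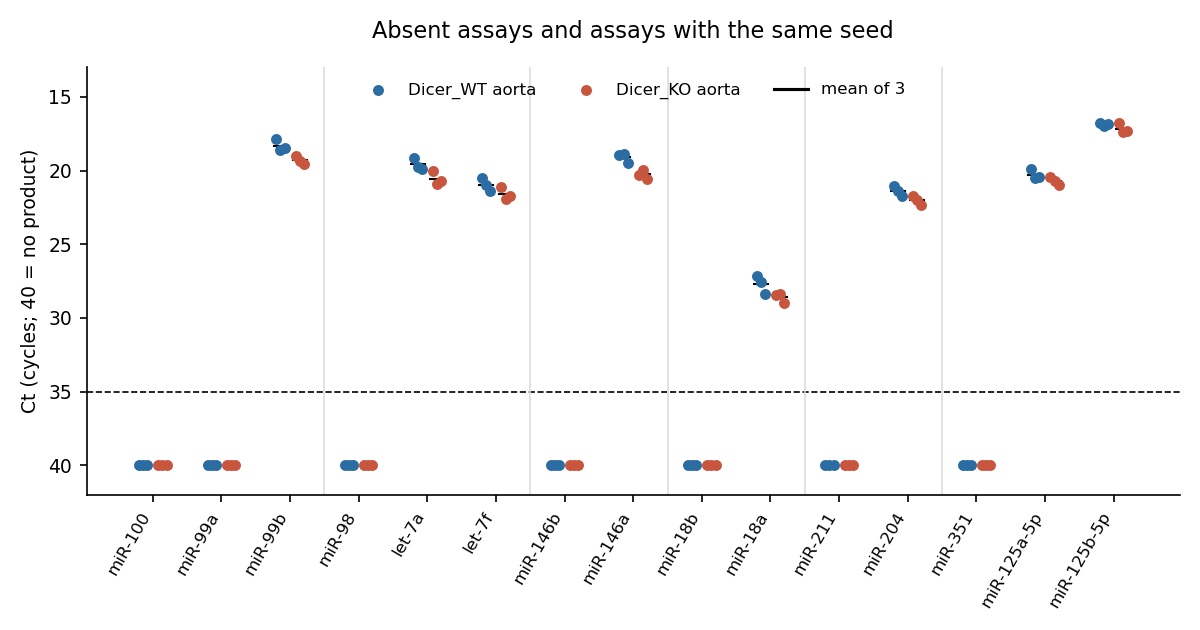
Ct of absent assays and of assays with the same seed, separated by lines into families, a point per aorta and a bar at the mean of 3, with the Ct axis inverted. miR-100, miR-99a, miR-98, miR-146b, miR-18b, miR-211 and miR-351 stand at 40, and their relatives lie from 16.7 (miR-125b-5p) to 29.0 (miR-18a).

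The authors' deposited table of relative quantities, a linear ratio to the Dicer_WT aortas, holds values for all 95 absent assays. For the 64 members of the first card without product these deposited values were identical from assay to assay, 0.866, 1.06 and 1.09 in Dicer_WT and 1.04, 1.26 and 1.22 in Dicer_KO aortas. On the second card the 28 members shared 0.882, 1.02 and 1.12 in Dicer_WT and 1.04, 1.19 and 1.19 in Dicer_KO aortas. The fold changes in the authors' deposited table were accordingly 1.17 for the 64 assays and 1.13 for the 28, Dicer_KO over Dicer_WT. For the 3 members with a late reading, the fold in the authors' deposited table was 7.81 for miR-487b, 0.191 for miR-469 and 0.184 for miR-493, each set by 1 well. The numbers of the 92 members without product hold no reading of the microRNA. A Ct of 40 was carried through, so they differ between aortas only by the reference RNAs of the card.

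Whether genotype changed anything near the absent microRNAs was asked of their companions, the 114 assays that share a hairpin, a cluster (genes within 10 kb on a strand) or a seed with a member and are not members. Of these, 75 were detected in all aortas, 29 in some and 10 in none, and 48 members had no companion. No member could be tested, since none was detected in at least 2 aortas of a group. Relative level was the mean Ct of the reference RNAs minus Ct, on a log2 scale, with undetected wells set to Ct 35. Among the 377 assays tested, limma called 7 lower in Dicer_KO aortas (1.86%) and 0 higher at an adjusted p under 0.05, and 92 were lower and 9 higher at an unadjusted p under 0.05. Of 90 companions tested, 4 were called lower (4.44%) and 0 higher (35 lower and 0 higher unadjusted).

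Those 4 companions were cluster mates of members. miR-501-3p, in the Clcn5 cluster with the absent miR-188-3p, read 24.7, 25.006 and 25.7 in Dicer_WT aortas and had no product in any Dicer_KO aorta (log2 difference -9.65 ± 0.24 SE, n = 3 each, limma adjusted p = 9.04e-06). The other strand of that hairpin, miR-501-5p, read 27.7, 27.7 and 28.3 in Dicer_WT aortas. In Dicer_KO aortas it read 29.4 and 30.0 in replicates 1 and 2 and had no product in replicate 3. That difference was -3.38 ± 1.44 (SE, n = 3 each, limma adjusted p = 0.199). The cluster mates miR-532-3p, miR-532-5p and miR-362-3p differed by -0.60, -0.64 and -0.75, and limma called none of them. miR-881*, near the absent miR-878-5p and miR-871, read 30.0, 29.4 and 30.8 in Dicer_WT and had no product in Dicer_KO aortas (-4.76 ± 0.34 SE, limma adjusted p = 7.28e-04). Its partner strand miR-881 read 34.0, near the limit of 35, in Dicer_KO replicate 1 and had no product in the other aortas. With that single reading miR-881 was not tested. miR-665, near the absent miR-493 and miR-540-3p, read 30.0, 30.6 and 30.8 in Dicer_WT and had no product in Dicer_KO aortas (-4.31 ± 0.19 SE, limma adjusted p = 8.77e-05). miR-501-3p, miR-881* and miR-665 met the detection filter through their Dicer_WT aortas alone, so their calls and p-values partly follow from that selection. For these 3 the silent wells were set to Ct 35, so the differences are bounds and their errors leave out the true spread. Their size follows the Ct set for silent wells. Over 16 alternatives it ran from -6.65 to -14.65 for miR-501-3p. It ran from -1.76 to -9.76 for miR-881* and from -1.31 to -9.31 for miR-665. All 16 passed the threshold for each. Every one of them gave the silent wells a set Ct, so passing was nearly fixed beforehand and adds no support. miR-431, near miR-540-3p, read 24.3, 24.7 and 25.3 in Dicer_WT and 26.6, 27.2 and 28.0 in Dicer_KO aortas, and fell by 2.26 ± 0.35 (SE, n = 3 each, limma adjusted p = 0.0400). That call held in 11 of 18 alternative settings, with adjusted p from 0.0176 to 0.179.

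By kind of link, the median of the partner strands lay nearest to 0, and the kinds were not tested against each other. Over 13 partner strands tested, 5 lay below 0, the median log2 difference was 0.046 and 0 were called (limma, 1 lower and 0 higher at an unadjusted p under 0.05). Of the named partners, miR-380-5p differed by -1.03 ± 0.23 (SE, n = 3 each, limma adjusted p = 0.0691), miR-188-5p by -0.58 ± 0.24 (0.190) and miR-139-5p by 0.046 ± 0.31 (0.911). The difference of miR-139-5p turned negative under 5 alternatives and that of miR-188-5p positive under quantile normalization. None of the 3 passed the threshold with the settings used here. miR-380-5p passed it in 3 of 18 alternatives, with adjusted p from 0.0435 to 0.249 in limma.

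Over 71 cluster mates the median was -0.63, with 61 below 0, and over 16 seed mates it was -0.59, with 14 below 0, where limma called 0 (5 lower and 0 higher at an unadjusted p under 0.05). miR-99b, for instance, differed by -0.77 ± 0.21 (SE, n = 3 each, limma adjusted p = 0.0996). The median over all companions was -0.62 and over all 377 assays -0.42, with 82.2% and 78.3% below 0. Groups did not overlap, with Dicer_KO lower, for 44 companions (48.9%) beside 123 of all assays tested (32.6%), and with Dicer_KO higher for 0 companions beside 9 (2.39%). Many cluster mates come from the Dlk1-Dio3 locus and are no independent points. Per aorta, the companions' median deviation was 0.046, 0.12 and -0.21 in Dicer_WT and -0.48, -0.54 and -0.85 in Dicer_KO aortas, so the groups did not overlap. No such median per aorta was taken over all assays, whose differences also lay mostly below 0. The counts of calls depended on Dicer_KO replicate 1: without it 28 companions and 64 assays in all were called. With U87 and Y1 as reference RNAs in place of the set used, the companions' median was -0.092.

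**Figure D5:**
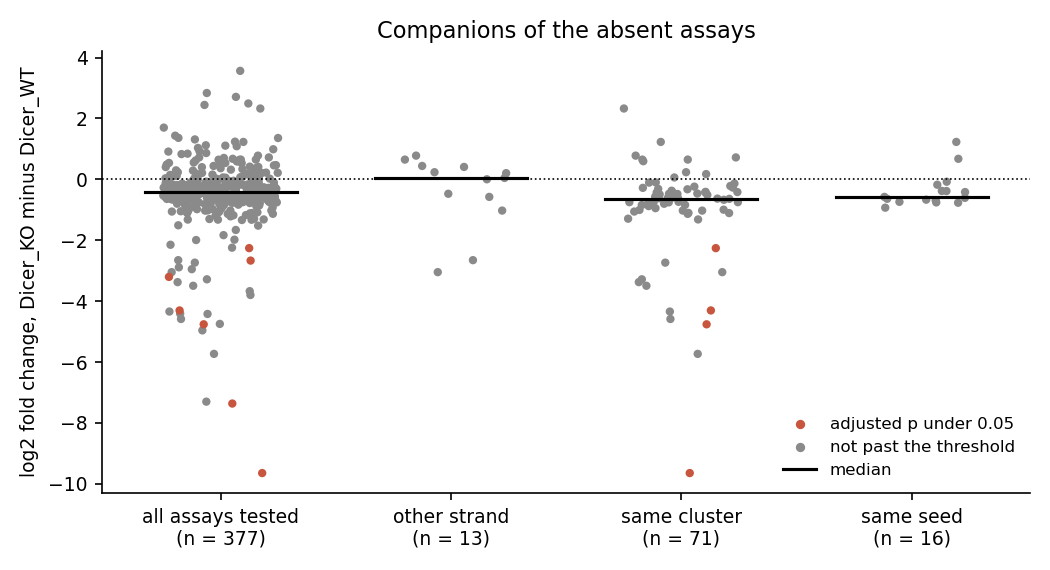
Log2 difference in relative level, Dicer_KO minus Dicer_WT, for all 377 assays tested and for companions by kind of link, a point per assay with a bar at the median; red marks an adjusted p under 0.05 in limma. The median is -0.42 for all assays, 0.046 for partner strands, -0.63 for cluster mates and -0.59 for seed mates.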

How the data were processed

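Per the labels, total RNA of whole aortas was isolated with a mirVana kit, reverse-transcribed and preamplified with TaqMan reagents and read with FAM-labelled probes. Ct values were deposited by the authors for 2 cards, with 40 for no product, and 5 decimal commas were read as points. Relative quantities and fold changes deposited by the authors are linear ratios. Lots, software and dates of the cards are not given in the sources used. The labels call replicates biological, and each aorta was taken as 1 mouse. With 3 per group, their number limits the precision.

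Members and lists were chosen with earlier results of these data known. The fit used limma 3.58.1 (lmFit, then eBayes) under R 4.3.3 on the 377 assays with signal in 2 or more of the 3 aortas of either group, with undetected wells at Ct 35. P-values were two-sided and adjusted by Benjamini-Hochberg over these assays, with a threshold of 0.05. The rule named members with a reading under 40, strands of a shared hairpin, members with a cluster or seed mate detected in all 6 aortas, miR-100, assays at the threshold and lists with many members. Called companions outside that rule (miR-501-3p, miR-665 and miR-881*) were named after their values were seen. So were the other strands and cluster mates given beside them, partner strands detected in some aortas, list mates and strong assays of the miR-681 to miR-720 range. Unlabelled strands were assigned by hand from older naming. Reference names matched 77 members to a gene in GRCm38.p6. Links cover matched assays only. The fit was tested on simulated data with modest shifts in Ct. Those data did not imitate a full loss of product as in miR-501-3p, miR-665 and miR-881*, so that test does not bear on their calls. Alternatives covered thresholds, reference RNAs, silent wells, filters and each aorta left out. Base composition was not compared, as under 80% of members had a sequence (76.8%).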

Additional observations from a re-analysis of the deposited data

How the results depend on the processing

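The count of absent assays kept within 1.5 times of 95 under its alternatives: 114 at Ct 32, 92 at Ct 38 or with no product, 112 with star names, 96 with the named families, and 95 to 99 with an aorta left out. Members with a late reading numbered 0 at Ct 38. Calls over all assays rose from 7 to 26 at Ct 32, 17 with silent wells missing, 13 with Ct 40 as measured and 22 among assays detected in all 6 aortas, and ranged from 5 to 64 with an aorta left out (64 without Dicer_KO replicate 1, 11 without Dicer_KO replicate 2). Companion calls moved from 4 to 11, 7 and 8 at Ct 32, with silent wells missing and among assays detected in all 6, and ranged from 3 to 28 with an aorta left out. The companions' median was -0.83 on non-normalized Ct, -0.27 with mean centring, -0.092 with U87 and Y1 and -0.13 with quantile normalization. The sign of miR-139-5p turned on non-normalized Ct (-0.18), with U6 alone (-0.12) and without Dicer_WT replicate 1 (-0.14), Dicer_KO replicate 2 (-0.11) or Dicer_KO replicate 3 (-0.027), a range of -0.14 to 0.27 with an aorta left out. miR-466d-3p turned with U6 alone (-0.047) and miR-188-5p with quantile normalization (0.059). The cause was not tested. Same-numbered aortas did not deviate together (r = -0.084, -0.097 and 0.043), and with replicate number as a block the fit gave 7 calls, 4 among companions, and a companion median of -0.62. Counting each count or median under each setting as a case, 15 cases moved beyond the limits used and 57 did not. RNA too scarce to give product within the cycles run cannot be seen, so absent means not detected.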
